A study of Homo sapiens with 6 samples.

Results

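The genes described here encode proteins of the junctions between endothelial cells: cadherins, catenins, immunoglobulin-like adhesion molecules and nectins, tight junction proteins and their scaffolds, connexins, protocadherins and receptor phosphatases that act at junctions. The 38 members were chosen by name, though with earlier results of these data known. Each of the 38 has a row among the 18317 gene names in the deposited tables. The RNA came from HUVECs, primary endothelium of the human umbilical vein, in which either the microRNA miR-483 (3 libraries) or its form with the oxidised base 8-hydroxyguanine, labelled 8OH-G miR-483 (3 libraries), had been overexpressed. In both groups the microRNA was delivered with a lipid transfection reagent and RNA was taken on day 2, so both groups carry an added microRNA. The scramble-transfected cells named in the treatment text were not analysed here, and each difference below can come from either form. The labels do not say which guanine was oxidised, which arm was used or whether replicate libraries were grown apart. The p-values therefore speak of the spread among these libraries, which may be technical.

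Endothelial cells hold together through adherens junctions, in which VE-cadherin binds its counterpart on the next cell and is tied to actin through catenins, and through tight junctions, in which claudins and occludin seal the gap and ZO-1 and cingulin anchor them. Gap junctions, built of connexins, pass ions and small molecules between neighbours. Together these structures set how readily fluid and leukocytes cross the vessel wall, and their make-up differs between arteries, veins and the blood-brain barrier.

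With 8OH-G miR-483, claudin-11, N-cadherin, connexin 43 and CXADR were higher, and PECAM-1, cadherin-11, T-cadherin, protocadherin-1, protocadherin-12 and the phosphatase PTPRM were lower, each by at least 1.5 times in mean level. CXADR was tested only because of its values with 8OH-G miR-483, so a difference was built into its being tested. VE-cadherin itself was lower by 1.42 times, while the transcripts of most catenins and of claudin-5 did not pass the test. Levels are in FPKM (fragment counts scaled by gene length and by library total), a unit inferred from the values. A call is an adjusted p under 0.05 in limma, with Benjamini-Hochberg adjustment over the 12712 genes that reached 1 FPKM in 3 or more libraries. The model used log2(FPKM + 1), and a positive fold change means more with 8OH-G miR-483. This scale understates the change of low genes. Of the 38 members, 32 were tested, and 7 of these were called higher, 10 lower and 15 not called. Calls were common in this comparison: 55.4% of all genes tested were called, 34.9% higher and 20.5% lower, so the members' 53.1% is near that background. By direction, 21.9% of tested members were higher and 31.2% lower, a split that was not tested and moved with scaling. For calls with at least a 1.5-fold difference in mean FPKM there were 4 members higher and 6 lower, against 18.0% and 10.2% of all genes. The median log2 fold change was -0.11 over the tested members and 0.09 over all genes tested. The groups' 3 values did not overlap for 19 of the 32, where 63.3% of all tested genes did not overlap.

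**Figure D1:**
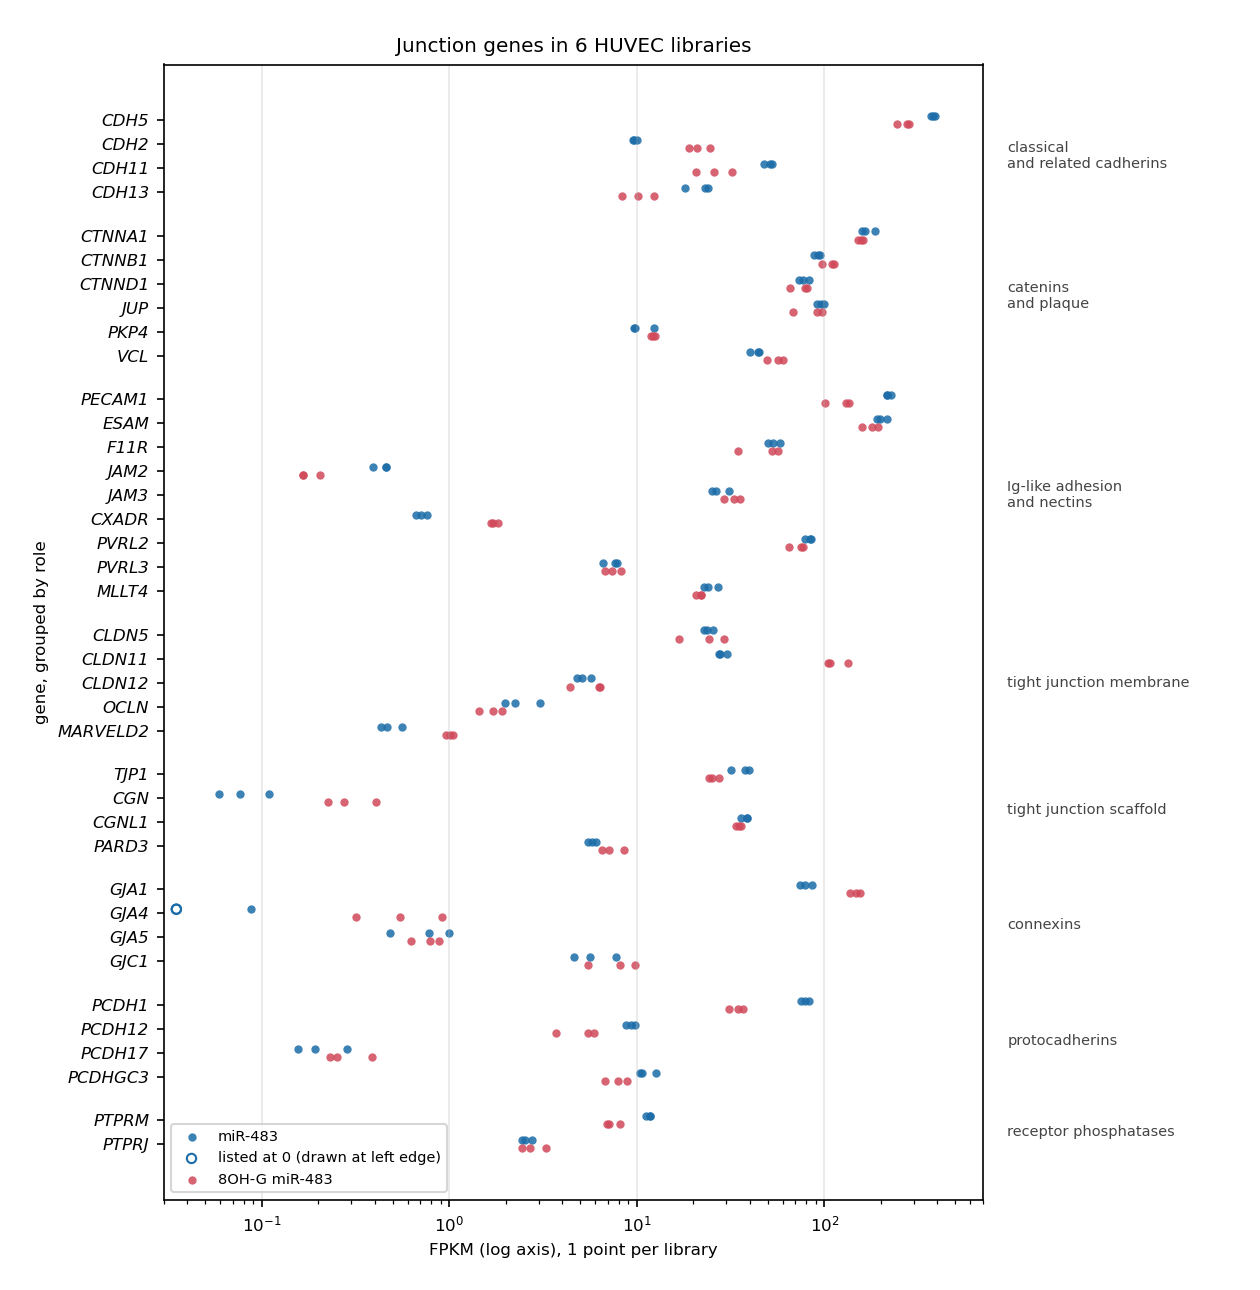
FPKM of the 38 junction genes on a log axis, 1 point per library, miR-483 in blue and 8OH-G miR-483 in red, grouped by role. A hollow point at the left edge stands for the 2 libraries in which GJA4 is listed at 0. The claudin-11 points of the groups lie apart (27.4 to 30.4 against 105 to 133), whereas those of claudin-5 overlap.

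Library totals ran from 1396537 to 1440422 FPKM with miR-483 and from 1598260 to 1687283 FPKM with 8OH-G miR-483. The totals thus did not overlap between the groups, and the scale of the values goes with the comparison. Mitochondrial genes held 73.4% to 78.4% of the FPKM over all names. Read depth is unknown, because the files hold no counts, so the spread over 3 libraries is the only measure of precision. All 10 blood endothelial markers looked at were at 1 FPKM or more in some library, with sums of 1709 to 1730 FPKM in the miR-483 libraries and 1055 to 1232 in the 8OH-G miR-483 libraries. Of these 10 markers, 6 were called lower and 0 higher, against 20.5% and 34.9% of all genes tested. KDR, ERG, EGFL7 and CD34 were not called. Much of the difference in the sum lay in VWF, at 509 ± 12.2 FPKM with miR-483 and 243 ± 35.3 FPKM with 8OH-G miR-483. Of the epithelial markers, 3 of 10 had a row and summed to 71.0 to 81.6 and 127 to 144 FPKM, with KRT18 called higher and KRT8 and KRT19 not called, and the rest, EPCAM among them, were not analysed here. Leukocyte markers with a row, 3 of 10, summed to 52.5 to 56.7 and 45.2 to 49.6 FPKM, with LYZ and CD68 called lower and LAPTM5 not called. LYZ reached 1 FPKM only in the miR-483 libraries, so a difference was built into its being tested. Mural and fibroblast markers with a row, 5 of 10 and nearly all of the sum from RGS5, came to 620 to 842 and 825 to 1018 FPKM, with COL3A1 called lower, RGS5 and ACTA2 not called and the other two under 1 FPKM in each library. The 3 lymphatic markers with a row of 5 summed to 36.1 to 38.0 and 23.7 to 31.4 FPKM, with LYVE1 and PROX1 called lower and FLT4 not called. The part of these shifts in the junction results was not tested. In bulk RNA, fewer cells of a type and less RNA per cell cannot be told apart.

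RefSeq promoter sequences, from 250 bases before to 50 after a gene's start on GRCh38.p14, were matched for 23 of the 38 members. They are shown for the genes with the largest differences that had one, claudin-11 and N-cadherin (higher) and protocadherin-1 (lower), with capitals on CACCC or its complement GGGTG, the box bound by Krüppel-like factors.
CLDN11 promoter, chr3:170418618-170418917, + strand: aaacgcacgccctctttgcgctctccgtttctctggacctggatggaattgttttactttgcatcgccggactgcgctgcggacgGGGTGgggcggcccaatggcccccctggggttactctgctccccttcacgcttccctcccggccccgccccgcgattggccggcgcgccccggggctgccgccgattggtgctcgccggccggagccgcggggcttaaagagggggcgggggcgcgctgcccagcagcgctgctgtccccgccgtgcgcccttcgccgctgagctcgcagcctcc
CDH2 promoter, chr18:28177081-28177380, - strand: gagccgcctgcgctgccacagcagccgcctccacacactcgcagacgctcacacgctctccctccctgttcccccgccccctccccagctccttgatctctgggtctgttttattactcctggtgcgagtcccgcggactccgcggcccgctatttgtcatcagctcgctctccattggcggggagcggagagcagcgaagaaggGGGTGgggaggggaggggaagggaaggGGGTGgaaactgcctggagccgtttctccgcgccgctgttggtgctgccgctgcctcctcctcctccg
PCDH1 promoter, chr5:141869578-141869877, - strand: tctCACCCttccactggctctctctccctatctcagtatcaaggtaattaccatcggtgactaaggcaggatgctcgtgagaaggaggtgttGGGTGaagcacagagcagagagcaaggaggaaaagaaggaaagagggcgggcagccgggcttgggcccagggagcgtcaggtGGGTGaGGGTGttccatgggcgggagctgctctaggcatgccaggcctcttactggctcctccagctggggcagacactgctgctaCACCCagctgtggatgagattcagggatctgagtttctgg
The box occurred 1 time in the claudin-11 sequence, 2 times in that of N-cadherin and 5 times in that of protocadherin-1. It was present in 15 of the 23 member promoters (65.2%), 3 of genes called higher and 3 of genes called lower, and in 58.9% of 27305 promoters of the same length. Those 27305 hold 1 promoter per gene name, with 1 chromosome left out. GGGCGG, the GC box, was in 73.9% of the member promoters and 44.6% of the 27305, and CTTCC, the core bound by ETS factors, in 78.3% and 71.9%. CATTCC, bound by TEAD factors, was in 4.35% and 14.0%, and TATAAA, the TATA box, in 0 of 23 and 12.0%. Each motif was searched on both strands, and matches of different motifs may overlap. A match is a description of the letters and not of a bound site.

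Among the classical and related cadherins, the tested members were all called, 3 lower and 1 higher. Of all genes tested, 55.4% were called, 20.5% lower and 34.9% higher, and the difference was not tested. VE-cadherin (CDH5), the defining cadherin of endothelium, had the highest level of all members, at 390.4, 372 and 379.8 FPKM in the 3 miR-483 libraries and 284, 275 and 244 FPKM in the 8OH-G miR-483 libraries. Its groups did not overlap, and the log2 fold change was -0.51 (SE 0.079, adjusted p = 0.000721, limma). N-cadherin (CDH2), which endothelial cells use for contact with mural cells, was at 10.02, 9.52 and 9.61 FPKM with miR-483 and at 21.1, 19.1 and 24.7 FPKM with 8OH-G miR-483. Each 8OH-G miR-483 library was above each miR-483 library, with a log2 change of 1.07 (SE 0.093, adjusted p = 2.84e-05, limma).

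Cadherin-11 (CDH11), best known from mesenchymal cells, stood at 52.4, 47.6 and 51.2 FPKM against 25.7, 20.8 and 32.3 FPKM, and its log2 fold change was -0.93 (SE 0.137, adjusted p = 0.000512, limma). T-cadherin (CDH13), which is anchored by a lipid and binds adiponectin and low-density lipoprotein, stood at 24.0, 18.03 and 23.1 FPKM against 12.4, 8.36 and 10.1 FPKM, with a log2 change of -1.01 (SE 0.146, adjusted p = 0.000468, limma). In both genes the lowest miR-483 library, replicate 2, lay above the highest 8OH-G miR-483 library. The FPKM summed over the 4 cadherin members was 463 ± 14.6 with miR-483 and 326 ± 16.1 with 8OH-G miR-483 (mean ± SD, n = 3 libraries per group, here and below), a sum that was not tested. VE-cadherin made up 82.3% ± 0.764 of it with miR-483 and 82.1% ± 3.35 with 8OH-G miR-483, while the share of N-cadherin was 2.10% ± 0.0276 and 6.66% ± 1.10.

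The ratio of N-cadherin to VE-cadherin, which a single scaling factor per library leaves as it is, was 0.0257, 0.0256 and 0.0253 with miR-483 and 0.0742, 0.0695 and 0.101 with 8OH-G miR-483. That is a log2 difference of 1.66 with no overlap between groups. The exact two-sided permutation test gave p = 0.1, the smallest that 3 against 3 libraries allow (0.133 adjusted over the 4 ratios compared), so the design cannot place this ratio under 0.05. The widest spread came from 8OH-G miR-483 replicate 3, and without it the log2 difference was 1.49.

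**Figure D2:**
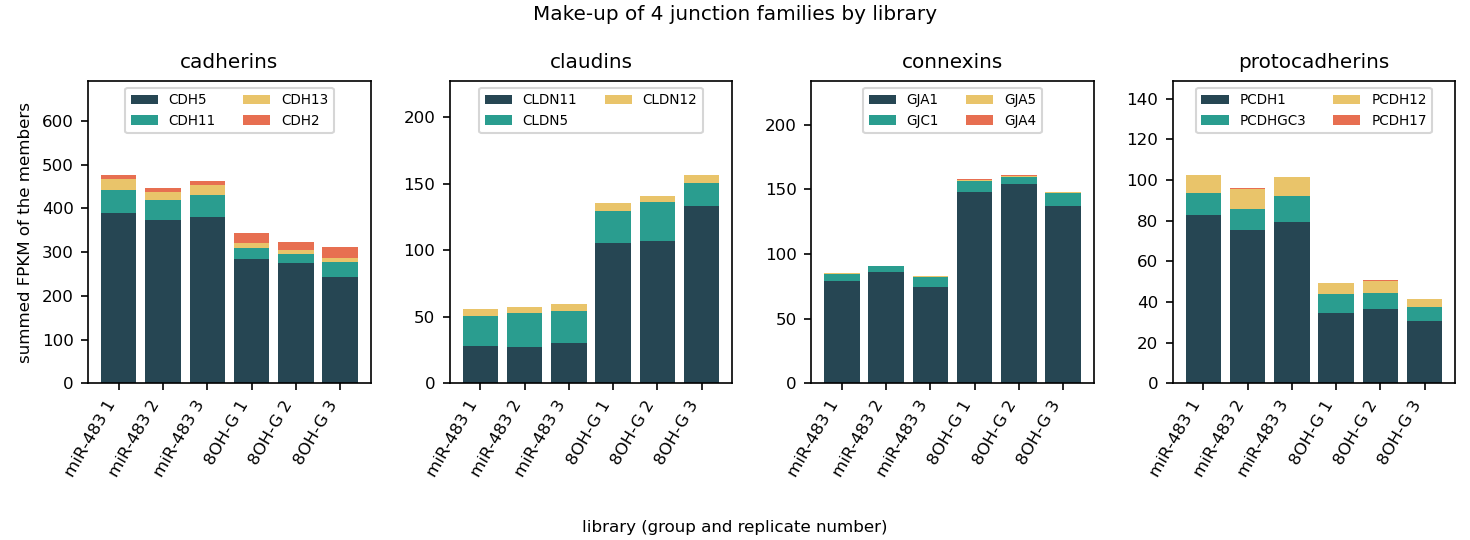
Stacked bars of summed FPKM in each of the 6 libraries for the cadherins, claudins, connexins and protocadherins among the members, each colour 1 gene. The cadherin and protocadherin sums are lower, and the claudin and connexin sums higher, in the 3 libraries with 8OH-G miR-483; claudin-11 is the claudin segment that grows, and connexin 43 makes up most of the connexin bars.

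Of the 6 tested members of the cytoplasmic plaque that ties cadherins to actin, 2 were called higher, 0 lower and 4 were not called. The shares over all genes tested were 34.9% higher and 20.5% lower. α-Catenin (CTNNA1), the actin-binding link and the most abundant of the 6, was at 158, 186 and 165 FPKM with miR-483 and at 160.5, 152 and 157 FPKM with 8OH-G miR-483. These ranges overlapped and the gene did not pass (log2 fold change -0.11, 95% confidence interval -0.29 to 0.07, adjusted p = 0.25, limma), although it was called lower after median-ratio scaling (adjusted p = 0.0362). Vinculin (VCL), recruited to junctions under tension, rose from 43.1 ± 2.67 to 55.5 ± 5.64 FPKM (log2 fold change 0.36, SE 0.089, adjusted p = 0.00882, limma). β-Catenin (CTNNB1), which also carries Wnt signals, rose from 91.8 ± 3.16 to 106 ± 8.15 FPKM with an adjusted p = 0.0459 in limma, a call that was lost under each of 3 other scalings (0.0701 to 0.299) and on leaving out any library except 8OH-G miR-483 replicate 3 (0.0644 to 0.155). p120-Catenin (CTNND1), which keeps cadherins at the surface, had levels of 77.7 ± 4.85 and 75.0 ± 7.94 FPKM. Plakophilin-4 (PKP4), a p120 relative, was at 10.6 ± 1.52 and 12.2 ± 0.316 FPKM.

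Plakoglobin (JUP), the close relative that can replace β-catenin on VE-cadherin, was at 95.5 ± 3.77 and 85.5 ± 15.5 FPKM and did not pass (adjusted p = 0.272, limma). The plakoglobin to β-catenin ratio was 0.989, 1.01 and 1.12 with miR-483 and 0.836, 0.864 and 0.699 with 8OH-G miR-483. Every value of the second group was below every value of the first, with a log2 difference of -0.39 and an exact two-sided permutation p = 0.1, again the smallest possible (0.133 adjusted over the 4 ratios).

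PECAM-1 (PECAM1), an immunoglobulin-like molecule of endothelial contacts that takes part in flow sensing and leukocyte passage, was at 215, 217 and 226 FPKM with miR-483 and at 135, 130.4 and 101 FPKM with 8OH-G miR-483. The highest 8OH-G miR-483 library was well under the lowest miR-483 library, and the log2 fold change was -0.85 (SE 0.109, adjusted p = 0.000245, limma). CXADR, the coxsackievirus and adenovirus receptor of tight junctions, was low, at 0.704, 0.665 and 0.757 FPKM against 1.67, 1.71 and 1.82 FPKM. It passed the filter on low values only through the 8OH-G miR-483 libraries, so a difference was built into its being tested (log2 fold change 0.68, SE 0.078, adjusted p = 0.000125, limma).

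The other immunoglobulin-like molecules were not called. ESAM, an adhesion molecule of endothelial tight junctions, was at 202 ± 12.3 and 177 ± 17.2 FPKM (adjusted p = 0.109, limma), and JAM-A (F11R) at 53.7 ± 4.04 and 48.0 ± 11.5 FPKM. JAM-C (JAM3) had 27.5 ± 3.04 and 32.5 ± 3.24 FPKM. Nectins start cell contacts and bind actin through afadin, and here nectin-2 (PVRL2) was at 82.2 ± 3.02 and 72.1 ± 6.20 FPKM, nectin-3 (PVRL3) at 7.35 ± 0.640 and 7.46 ± 0.715 FPKM and afadin (MLLT4) at 24.7 ± 2.24 and 21.6 ± 0.787 FPKM. ESAM, nectin-2 and afadin, all with lower means, were called lower after median-ratio scaling (adjusted p = 0.0177, 0.00955 and 0.014, limma). JAM-B (JAM2) was under 1 FPKM in all 6 libraries and not tested, at 0.393 to 0.461 FPKM with miR-483 and 0.166 to 0.205 FPKM with 8OH-G miR-483.

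**Figure D3:**
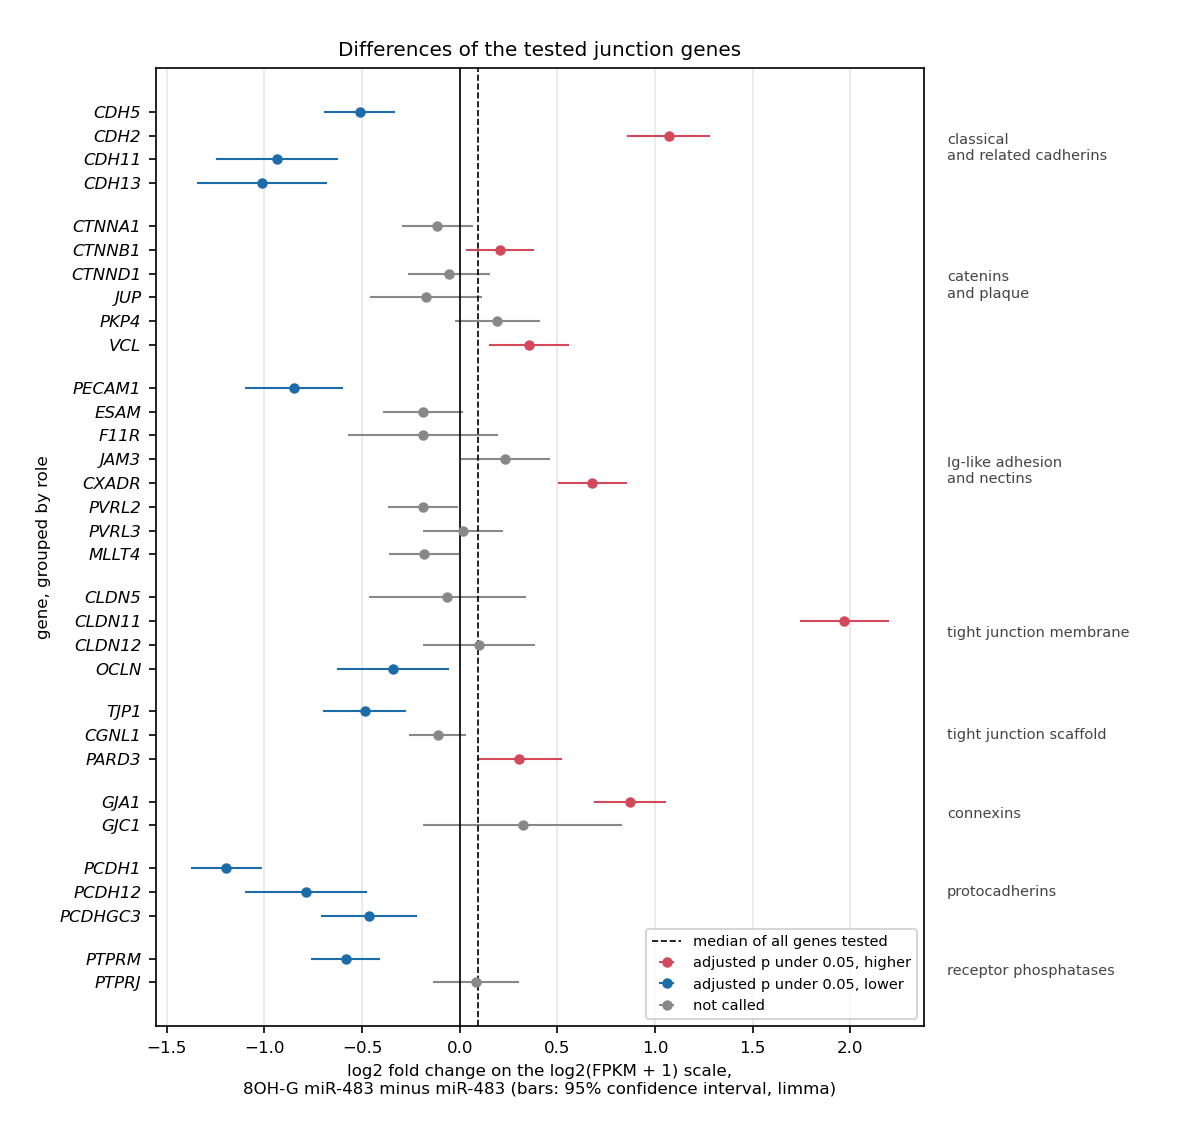
Log2 fold change of the 32 tested junction genes with 95% confidence intervals from limma, red for called higher, blue for called lower, grey for not called; the dashed line is the median of all genes tested, 0.09. Claudin-11 lies farthest to the right at 1.97 and protocadherin-1 farthest to the left at -1.19.

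At the tight junction, claudin-11 (CLDN11), best known from myelin and from the testis barrier, had the widest difference of all tested members. It was at 27.7, 27.4 and 30.4 FPKM with miR-483 and at 105, 107 and 133 FPKM with 8OH-G miR-483, a 4.04-fold higher mean with no overlap (log2 fold change 1.97, SE 0.1, adjusted p = 2.16e-06, limma). Claudin-5 (CLDN5), the main sealing claudin of endothelium, was at 24.0 ± 1.403 and 23.4 ± 6.28 FPKM and did not pass (log2 fold change -0.06, 95% confidence interval -0.46 to 0.34, adjusted p = 0.776, limma). In this gene 8OH-G miR-483 replicate 3 was at 16.8 FPKM, below the 24.2 and 29.3 FPKM of the other two. Without that library the estimate turned to 0.15 (adjusted p = 0.236, limma). Claudin-12 (CLDN12) was at 5.20 ± 0.471 and 5.69 ± 1.10 FPKM.

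With miR-483 the levels of claudin-11 and claudin-5 were close, a ratio of 1.22, 1.08 and 1.28 in the 3 libraries. With 8OH-G miR-483 the ratio was 4.34, 3.65 and 7.94, a log2 difference of 2.07 (exact two-sided permutation p = 0.1, the smallest possible, 0.133 adjusted over the 4 ratios). Of the FPKM summed over the 3 claudin members, claudin-11 held 49.4% ± 1.89 with miR-483 and 79.6% ± 4.97 with 8OH-G miR-483. Claudins outside the members, such as claudin-15 (given below), are not in this sum, so the shares depend on which claudins are counted.

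Occludin (OCLN), a membrane-spanning protein of tight junctions, fell from 2.43 ± 0.558 to 1.69 ± 0.235 FPKM with an adjusted p = 0.0463 in limma. The call was lost on leaving out miR-483 replicate 1 or 3 or 8OH-G miR-483 replicate 1 or 3 (0.0688 to 0.149) and with no filter on low values (0.0634). Tricellulin (MARVELD2), which seals the corners where 3 cells meet, lay at 0.433 to 0.556 FPKM with miR-483 and 0.962 to 1.04 FPKM with 8OH-G miR-483, too low to enter the test. Occludin, tricellulin and ZO-1 each occur on 2 rows of the tables. In miR-483 replicate 1 one of the rows is 0, whereas in the other 5 libraries both rows hold the same value, so the highest value was used, and reads of any duplicated copy of these genes are uncertain. The pattern went beyond these genes. Of 744 repeated names, 14 held a single value in miR-483 replicate 1, against all 744 in each other library.

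Of the scaffolds, ZO-1 (TJP1), which links claudins and occludin to actin, fell from 36.4 ± 4.09 to 25.6 ± 1.72 FPKM (log2 fold change -0.49, SE 0.093, adjusted p = 0.00228, limma). Paracingulin (CGNL1), a relative of cingulin, was the most abundant of the scaffolds at 38.7, 35.9 and 38.8 FPKM with miR-483 and 35.9, 33.6 and 35.1 FPKM with 8OH-G miR-483. Those ranges touched, and the gene was not called (log2 fold change -0.11, 95% confidence interval -0.26 to 0.03, adjusted p = 0.168, limma), although it was called lower after median-ratio scaling (adjusted p = 0.0183). The polarity scaffold PAR-3 (PARD3) rose from 5.78 ± 0.264 to 7.41 ± 1.02 FPKM (adjusted p = 0.0237, limma), a call lost after median-ratio, quantile or non-mitochondrial scaling (0.0708 to 0.219) and on leaving out miR-483 replicate 2 or 3 or 8OH-G miR-483 replicate 1 (0.0625 to 0.0727). Cingulin (CGN), a scaffold typical of epithelial tight junctions, lay at 0.0590 to 0.110 FPKM with miR-483 and 0.225 to 0.408 FPKM with 8OH-G miR-483 and was not tested.

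Connexin 43 (GJA1), the connexin of cultured and activated endothelium, held 92.1% ± 2.49 and 94.1% ± 1.48 of the FPKM summed over the 4 connexin members. Its level was 79.0, 85.9 and 74.2 FPKM with miR-483 and 148, 154 and 137 FPKM with 8OH-G miR-483. The groups were apart, with a 1.84-fold higher mean and a log2 change of 0.87 (SE 0.080, adjusted p = 3.75e-05, limma). Connexin 45 (GJC1) ranged from 4.60 to 7.74 FPKM and from 5.47 to 9.77 FPKM and was not called (adjusted p = 0.243, limma). The arterial connexins were near the bottom of the range and were not tested. Connexin 37 (GJA4) was listed at 0.0879, 0 and 0 FPKM with miR-483 and at 0.546, 0.916 and 0.318 FPKM with 8OH-G miR-483, and connexin 40 (GJA5) lay at 0.485 to 0.998 and 0.622 to 0.884 FPKM. The ratio of connexin 43 to the sum of connexins 37 and 40 was 90.8, 177 and 74.3 against 127, 90.5 and 114, with overlapping groups (exact two-sided permutation p = 1).

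**Figure D4:**
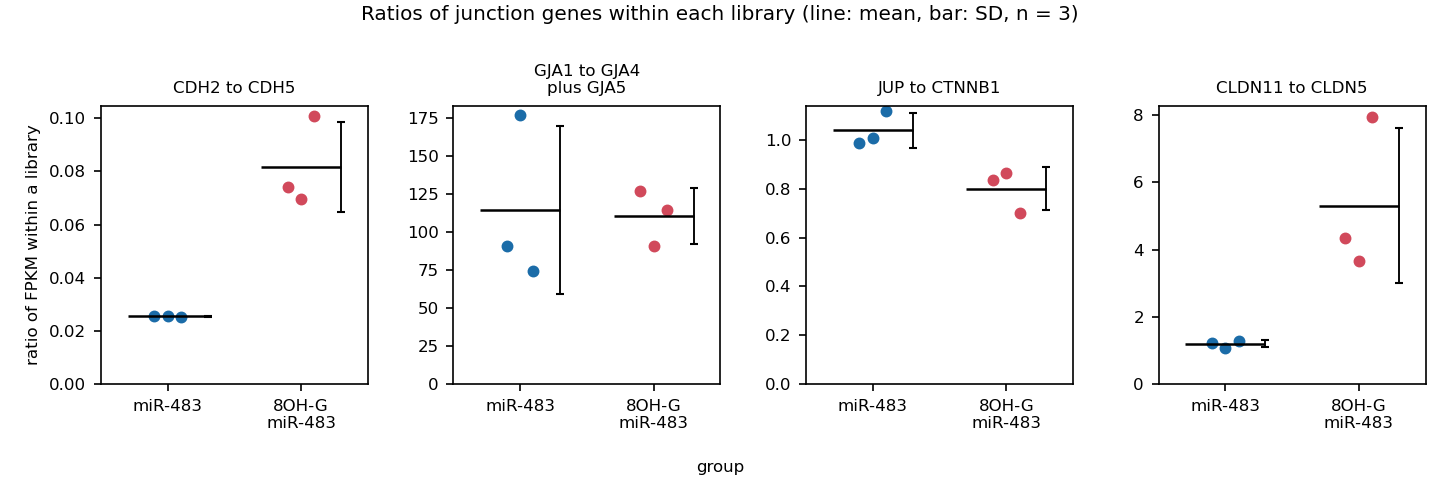
Ratio of FPKM between junction genes within each library, 1 point per library with the group mean (line) and SD (bar, n = 3). N-cadherin to VE-cadherin and claudin-11 to claudin-5 are higher, and plakoglobin to β-catenin lower, in each 8OH-G miR-483 library; the connexin ratio overlaps between groups.

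Of the 4 protocadherin members, the 3 tested were called lower. Over all genes tested, 20.5% were called lower and 55.4% in either direction, and the difference was not tested. Protocadherin-1 (PCDH1), an adhesion protein of epithelium and endothelium, was at 83.0, 75.5 and 79.3 FPKM with miR-483 and at 34.8, 36.7 and 30.9 FPKM with 8OH-G miR-483. That was the lowest log2 fold change of the tested members, -1.19 (SE 0.080, adjusted p = 7.35e-06, limma), with no overlap. Protocadherin-12 (PCDH12), also called VE-cadherin-2 and largely restricted to endothelium, was at 8.72, 9.76 and 9.36 FPKM against 5.52, 5.88 and 3.71 FPKM, and its log2 fold change was -0.79 (SE 0.136, adjusted p = 0.00131, limma). PCDHGC3, a γ-protocadherin, fell from 11.2 ± 1.26 to 7.87 ± 1.05 FPKM (adjusted p = 0.00607, limma). It shares its last exons with the other γ-protocadherin transcripts, so its level is uncertain. PCDH17 lay under 1 FPKM in all 6 libraries, at 0.157 to 0.285 and 0.231 to 0.385 FPKM. Protocadherins outside the members, looked up after these values were seen, did not all go the same way. PCDH10 was called lower, from 43.0 ± 3.77 to 29.6 ± 1.72 FPKM (adjusted p = 0.000783, limma), PCDH7 was not called at 1.28 to 1.69 and 1.23 to 1.65 FPKM (adjusted p = 0.823, limma), and PCDH18, under 1 FPKM and not tested, lay at 0.180 to 0.223 and 0.779 to 0.885 FPKM.

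PTPRM (PTPµ), a receptor phosphatase that binds its own kind on the next cell and associates with cadherins, was at 11.7, 11.1 and 11.8 FPKM with miR-483 and at 8.18, 7.10 and 6.90 FPKM with 8OH-G miR-483. The ranges were separate, and the log2 fold change was -0.58 (SE 0.077, adjusted p = 0.000288, limma). PTPRJ (DEP-1), which removes phosphate from VEGF receptor 2 and catenins, was at 2.58 ± 0.154 and 2.81 ± 0.426 FPKM and was not called.

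The other genes of the junction were taken from 3 lists. Of 35 other membrane proteins, 15 were tested, and 5 were called higher and 6 lower, against the background of 34.9% and 20.5% of all genes. Claudin-15 (CLDN15), a pore-forming claudin, fell from 27.9 ± 0.955 to 3.64 ± 0.376 FPKM (adjusted p = 3.5e-07, limma). With miR-483 its level was thus near those of claudin-5 and claudin-11, on the FPKM scale. CDH24, a cadherin, fell 1.66-fold. Among those higher were the kidney-type cadherin CDH6 (1.29 ± 0.249 to 3.97 ± 0.498 FPKM), the nectin-like poliovirus receptor PVR and the channel protein pannexin-1 (PANX1), the last 2 both 1.55-fold.

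Of 27 tested scaffold and polarity genes, 12 were called higher and 8 lower, 74.1% in all, where 55.4% of all genes were called (34.9% higher, 20.5% lower); this difference was not tested. The polarity protein SCRIB rose 1.48-fold and AJUBA, a LIM protein of tensed junctions, 1.62-fold. Falls were seen for the scaffold MAGI1 (12.9 ± 1.4 to 7.15 ± 0.595 FPKM), the actin crosslinker α-actinin-1 (ACTN1, 300.4 ± 8.76 to 204 ± 13.4 FPKM) and the vinculin-binding SORBS3 (1.36-fold).

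Of 41 tested signalling genes, 10 were called higher and 11 lower, 51.2% in all, near the 55.4% of all genes (34.9% higher, 20.5% lower). VE-PTP (PTPRB), the phosphatase that acts on VE-cadherin and TIE2, fell from 35.1 ± 5.48 to 14.9 ± 2.09 FPKM (adjusted p = 0.000107, limma). FGD5, an endothelial exchange factor for CDC42, fell from 88.0 ± 3.51 to 39.7 ± 2.62 FPKM, and the small GTPase RHOB from 410.1 ± 4.62 to 227 ± 37.6 FPKM. ARHGAP29, a GTPase-activating protein that acts with RAP1 and RASIP1 in endothelium, rose from 34.8 ± 2.33 to 80.9 ± 6.98 FPKM (adjusted p = 9.22e-06, limma). The Src-family kinase YES1, which can phosphorylate VE-cadherin, rose 1.74-fold. The kinase PAK1 went from 0.711 ± 0.170 to 3.94 ± 0.333 FPKM and passed the filter only through the 8OH-G miR-483 libraries.

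Particular libraries were often at the edge of their group among the 32 tested members. The lowest of the 3 miR-483 values was that of replicate 2 in 20 members, and the lowest of the 3 8OH-G miR-483 values was that of replicate 3 in 17. Over all tested genes these libraries were lowest in 37.0% and 37.1%. After median-ratio scaling 5 members were called higher and 15 lower (25.0% of calls higher, against 41.2% as deposited), after quantile normalization or non-mitochondrial scaling 5 and 12 (29.4%), while over all genes 63.0% of calls were higher as deposited and 49.9%, 49.2% and 57.2% after these 3 scalings. The centre of all genes' log2 changes shifted by -0.10 under quantile normalization. Of the 17 called members, 11 were called in the same direction under every alternative that tested them: CDH5, CDH2, CDH11, CDH13, PECAM1, CXADR, CLDN11, GJA1, PCDH1, PCDH12 and PTPRM. Among these, CXADR passed the filter on low values only through the 8OH-G miR-483 libraries.

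**Figure D5:**
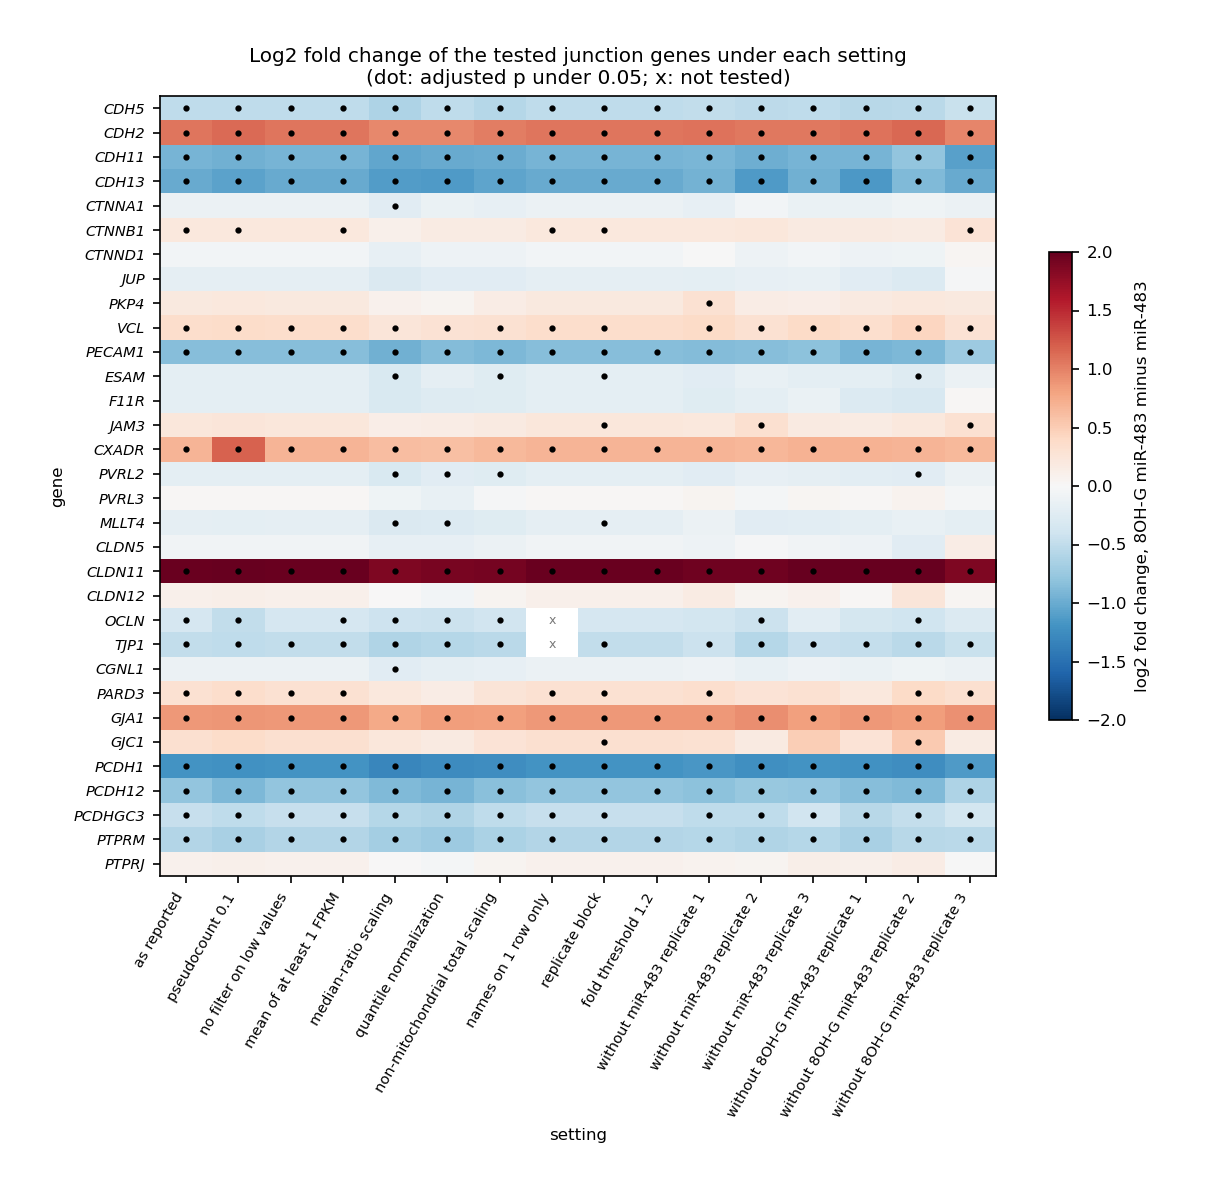
Log2 fold change of the 32 tested junction genes (rows) as reported and under 15 alternative settings (columns), on a colour scale from blue (lower with 8OH-G miR-483) to red (higher), with a dot where the adjusted p was under 0.05 and a cross where the gene was not tested. Dots run across the whole row for 11 genes, among them claudin-11 and protocadherin-1, and β-catenin (CTNNB1) loses its dot in 10 of the 15 alternatives.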

How the data were processed

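The deposited tables of 6 HUVEC RNA-seq libraries, 1 column of 20792 rows each, were read. Per the submitters' processing notes, cutadapt, STAR, HTSeq, DESeq2 and hg19 were used; their versions and roles, the strand setting and the annotation are not stated there. The deposited values carry no unit in the file headers and were taken as FPKM made by the authors, since their totals exceed what CPM or TPM allow. Low genes showed no clear whole-read steps (24.2% to 25.1% within 0.02 log2 of a ratio of small whole numbers at the best depth ratio, against 21.3% to 22.1% at the median ratio). Read depth is unknown, so this check could miss such steps. The values were taken as normalized, and no count test was run.

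Repeated names (744) entered once, at the highest value per library, and 24 rows with names turned into dates were left out. The 12712 genes reaching 1 FPKM in 3 or more libraries entered limma 3.58.1 (R 4.3.3; trend and robust options, pseudocount 1, group as the only term). Simulated libraries of this comparison, over 12712 genes, returned 63 of 100 true changes of 0.5 log2, 95 of 100 of 1 log2, and 166 calls of which 8 were false. Far fewer genes were changed there than the 55.4% called in the data. The recovery and false calls therefore need not hold for the data. Ratios were compared by exact permutation over libraries in Python 3.11.15. Same-numbered libraries deviated together with r of 0.02, 0.33 and 0.01, so the numbers were not taken to pair them. Values per library are printed for members called with at least a 1.5-fold difference and for the highest member of each role; from each list of other genes the 3 with the smallest p in each direction are named, except for some that are not reported here, and values of single libraries of other members were picked after they were seen. Members and lists were chosen with earlier results of these data known.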

Additional observations from a re-analysis of the deposited data

How the results depend on the processing

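With a fold threshold of 1.2 in the limma test, the members called higher fell from 7 to 4, with 7 lower. Under that threshold the other membrane proteins had 3 higher, the scaffolds 6 higher and 3 lower, the signalling genes 5 lower, and all genes 2257 higher and 1179 lower (4433 and 2606 in the test of any difference). Leaving out each library in turn gave 5 to 8 members higher and 9 to 12 lower. With the replicate number as a block, 9 members were higher and 11 lower, OCLN was lost (adjusted p = 0.0734, limma), ESAM, JAM3, MLLT4 and GJC1 were gained (0.0449, 0.0338, 0.0408 and 0.00881), and all genes had 4798 higher and 2796 lower; not every library deviated most like its own number. By sign flips over the same pairs the ratio of N-cadherin to VE-cadherin kept a log2 difference of 1.66 with an exact p = 0.25, the smallest that 3 pairs allow.

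Among members, signs turned only in those that were not called. PVRL3 went from 0.02 to -0.080 after median-ratio scaling, -0.141 after quantile normalization and -0.027 after non-mitochondrial scaling, and CLDN12 turned to -0.060 and PTPRJ to -0.037 after quantile normalization. Over the libraries left out, CTNND1 ranged from -0.109 to 0.034, F11R from -0.317 to 0.023, CLDN5 from -0.234 to 0.149, PVRL3 from -0.046 to 0.076 and PTPRJ from -0.004 to 0.151. The connexin ratio had log2 differences from -0.21 to 0.41 over the libraries left out. The neighbouring gene HDAC3 turned to -0.043 and -0.023 after median-ratio scaling and quantile normalization. With 1 library left out, calls were gained for PKP4 (without miR-483 replicate 1, 0.0124), JAM3 (0.0256 without miR-483 replicate 2 and 0.0316 when 8OH-G miR-483 replicate 3 was dropped) and, without 8OH-G miR-483 replicate 2, ESAM (0.0464), PVRL2 (0.0486) and GJC1 (0.0439), all adjusted p in limma. VCL, TJP1 and PCDHGC3 were lost only with the fold threshold (adjusted p = 0.402, 0.0727 and 0.145, limma). With no filter on low values JAM2 was called lower and MARVELD2, CGN and GJA4 higher (0.00672, 0.00194, 0.0186 and 0.0061). Values near 0 FPKM cannot be judged further, because read depth is unknown, and the cause of each change was not tested.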

Other observations

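The 3 protocadherin members called lower lie near each other on chromosome 5, within 0.48 megabases from PCDHGC3 to PCDH12 in RefSeq, and the genes between them were looked at after this was seen. Of 7 protein-coding genes there that are not protocadherins, all tested, 4 were called lower, 0 higher and 3 not called in limma. Over all genes tested, 20.5% were called lower and 55.4% in either direction. Protocadherin genes were left out of this count. FCHSD1 had mean levels of 21.9 and 14.1 FPKM with miR-483 and 8OH-G miR-483 (adjusted p = 0.000246, limma). The endothelial GTPase-activating protein gene ARAP3 had 76.8 and 50.7 FPKM (adjusted p = 0.000498, limma). DIAPH1, a formin that builds actin filaments, had 33.3 and 23.9 FPKM (adjusted p = 0.000389, limma). DELE1, which relays mitochondrial stress, had 24.8 and 20.6 FPKM (adjusted p = 0.00527, limma). HDAC3, RELL2 and RNF14 were not called (adjusted p = 0.466, 0.271 and 0.278, limma).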
